A study of Mus musculus with 16 samples.

Results

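The mouse Dlx homeobox genes are 6 genes, Dlx1, Dlx2, Dlx3, Dlx4, Dlx5 and Dlx6, and their RNA was followed over all 16 libraries of the series. They were taken by symbol from tables of 24411 genes. The genes were selected on their RNA levels, which were known from these same libraries, so their own levels and fold changes are given below as a description without p-values. Of the 6, 5 passed the filter on low counts, and Dlx4 did not.

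Dlx genes are the vertebrate relatives of the fly gene Distal-less. Each encodes a transcription factor whose homeodomain binds AT-rich DNA. They lie in the genome as convergently transcribed pairs, and both members of a pair usually share enhancers. Dlx1 and Dlx2, and with them Dlx5 and Dlx6, are known for the making of inhibitory interneurons in the forebrain. Dlx5 and Dlx6 pattern the lower jaw and act in bone, Dlx3 acts in skin, hair, teeth and placenta, and Dlx4 is the least studied of the family.

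The study asked what loss of a Runx1t1 allele does in mice that develop neuroblastoma, a tumor of the sympathetic lineage, from a human MYCN transgene. The mice came from the Th-MYCN line, kept on a 129/SvJ background, in which the Th promoter drives human MYCN in neuroectodermal cells, and from its crosses with a separate knockout line whose Runx1t1 allele is inactivated by an insertion. The strain background of each group after these crosses is not given in the sources used here. The ganglia, spelled Coelic in the labels and celiac here, from mice 2 weeks old made up 4 groups, and the labels give Neuroblastoma as the cell type of all 16 libraries, ganglia included. MYCN wild-type mice, which have no transgene, gave 4 libraries with wild-type Runx1t1 (control ganglia) and 3 labelled Runx1t1 heterozygote (control het ganglia), and both together are called transgene-free. MYCN homozygote mice gave 3 ganglion libraries with wild-type Runx1t1 (MYCN ganglia) and 2 labelled Runx1t1 heterozygote (MYCN het ganglia). In the plots, Tg-free or Transgene-free WT and het stand for control and control het ganglia, and MYCN WT for MYCN ganglia. The group of tumors held 4 libraries from MYCN homozygote mice with wild-type Runx1t1, and the labels give no age for them. Replicates keep the numbers of the labels, so some numbers are missing in a group. The labels do not say whether the libraries of a group came from separate animals, so each test measures only the spread between these libraries.

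Total expected counts ran from 10692299 to 38618757 per library, and 6 ganglion libraries were under 20000000 while no tumor was. Runx1t1 RNA, the gene targeted in the heterozygotes, did not mark the label. It lay at 2.78 to 4.41 TPM, a level scaled by transcript length and library size, in control ganglia and at 4.36 to 6.28 TPM in control het ganglia. MYCN ganglia had 70.3, 7.90 and 37.4 TPM in replicates 1, 3 and 4, MYCN het ganglia 8.83 and 16.9 TPM, and tumors 29.5 to 55.8 TPM. The human transgene has no row in the mouse table. Among markers of the sympathetic neuron, the summed level was 7569 to 20635 TPM over all ganglia and 2249 to 3823 TPM in tumors. Replicate 2 of the control ganglia stood apart through lymphocyte markers, with a summed 691 TPM against 0.17 to 6.30 TPM in the other 15 libraries.

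The homeobox, the stretch that codes for the DNA-binding part, is shown for the members on which the results turn, because the bases in which they differ are what lets a sequencing read be given to one gene and not to another. It was found in the GENCODE vM21 transcripts of the GRCm38 (mm10) genome, where it spans the end of exon 2 and the start of exon 3 of each gene. In Dlx1, on the plus strand, it lies at chr2:71531025-71531156 and chr2:71532264-71532311. In Dlx2, on the minus strand, it lies at chr2:71545384-71545515 and chr2:71544877-71544924. The Dlx5 homeobox lies on the minus strand at chr6:6879526-6879657 and chr6:6878441-6878488, and that of Dlx6 on the plus strand at chr6:6865140-6865271 and chr6:6867041-6867088. Each is printed 5′ to 3′, and capitals mark the bases that are not the same in all 4.
Dlx1: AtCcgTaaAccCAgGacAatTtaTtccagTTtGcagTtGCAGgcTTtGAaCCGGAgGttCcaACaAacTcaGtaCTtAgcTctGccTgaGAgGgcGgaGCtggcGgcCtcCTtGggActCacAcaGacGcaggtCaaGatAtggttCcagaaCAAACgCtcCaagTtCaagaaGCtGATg
Dlx2: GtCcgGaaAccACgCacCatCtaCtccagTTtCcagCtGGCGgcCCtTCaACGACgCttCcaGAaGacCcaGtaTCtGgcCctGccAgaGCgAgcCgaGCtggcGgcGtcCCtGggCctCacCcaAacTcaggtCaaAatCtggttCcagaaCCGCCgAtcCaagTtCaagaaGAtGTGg
Dlx5: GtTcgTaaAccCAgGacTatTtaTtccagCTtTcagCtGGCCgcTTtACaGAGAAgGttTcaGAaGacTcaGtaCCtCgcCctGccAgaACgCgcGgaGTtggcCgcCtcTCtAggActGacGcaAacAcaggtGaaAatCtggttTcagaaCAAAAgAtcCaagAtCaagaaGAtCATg
Dlx6: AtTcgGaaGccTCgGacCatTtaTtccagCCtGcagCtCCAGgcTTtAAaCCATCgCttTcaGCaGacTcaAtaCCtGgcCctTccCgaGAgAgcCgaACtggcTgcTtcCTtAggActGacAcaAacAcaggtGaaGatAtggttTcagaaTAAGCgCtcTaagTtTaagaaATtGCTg

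Of the 180 bases, 74 differed among the 4 genes, and 51 of these were at the third positions of the 60 codons. Within the homeobox, Dlx1 and Dlx2 shared 73.9% of bases and Dlx5 and Dlx6 shared 73.3%. Over all 6 members the identity ran from 66.1%, between Dlx3 and Dlx6, to 81.7%, between Dlx2 and Dlx3. The longest run of identical bases between the transcripts of any pair of members was 11 to 23 bases, against reads of 100 bases. The estimated counts bear on the same point: in Dlx2 to Dlx6 all 80 of 80 values, many of them 0, were whole to within 0.01 of a count. They thus showed no fractional share of a read, although a whole value does not exclude sharing. Dlx1 was fractional in 10 of 16 libraries, and there its sum with the antisense transcript Dlx1as was whole in 16 of 16 libraries.

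Members lie in 3 pairs on 3 chromosomes, each pair facing inward. Dlx1 (chr2:71528113-71533981, plus strand) is 9426 bases from Dlx2 (chr2:71543408-71546754, minus strand). Dlx6 (chr6:6863334-6868568, plus strand) is 9236 bases from Dlx5 (chr6:6877805-6882085, minus strand). Dlx3 (chr11:95120119-95125296, plus strand) is 15150 bases from Dlx4 (chr11:95140447-95146263, minus strand). All coordinates are of GENCODE vM21 on GRCm38.

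The data show a family that was divided by pair. Dlx1 and Dlx2, and at a lower level Dlx3, were present in ganglia and at or near 0 in tumors. Dlx5 and Dlx6 were at or near 0 in most ganglia and high in 3 of 4 tumors. In transgene-free ganglia Dlx1, Dlx2 and Dlx3 made up 92.4 to 100% of the family's summed TPM, and in tumors Dlx5 and Dlx6 made up 82.0 to 100%. The sum itself was 3.98 to 7.86 TPM in transgene-free ganglia and 1.11, 53.6, 17.6 and 55.6 TPM in tumor replicates 1 to 4. In bulk tissue, fewer cells of a type and less RNA per cell cannot be told apart, and this holds for every level below.

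**Figure D1:**
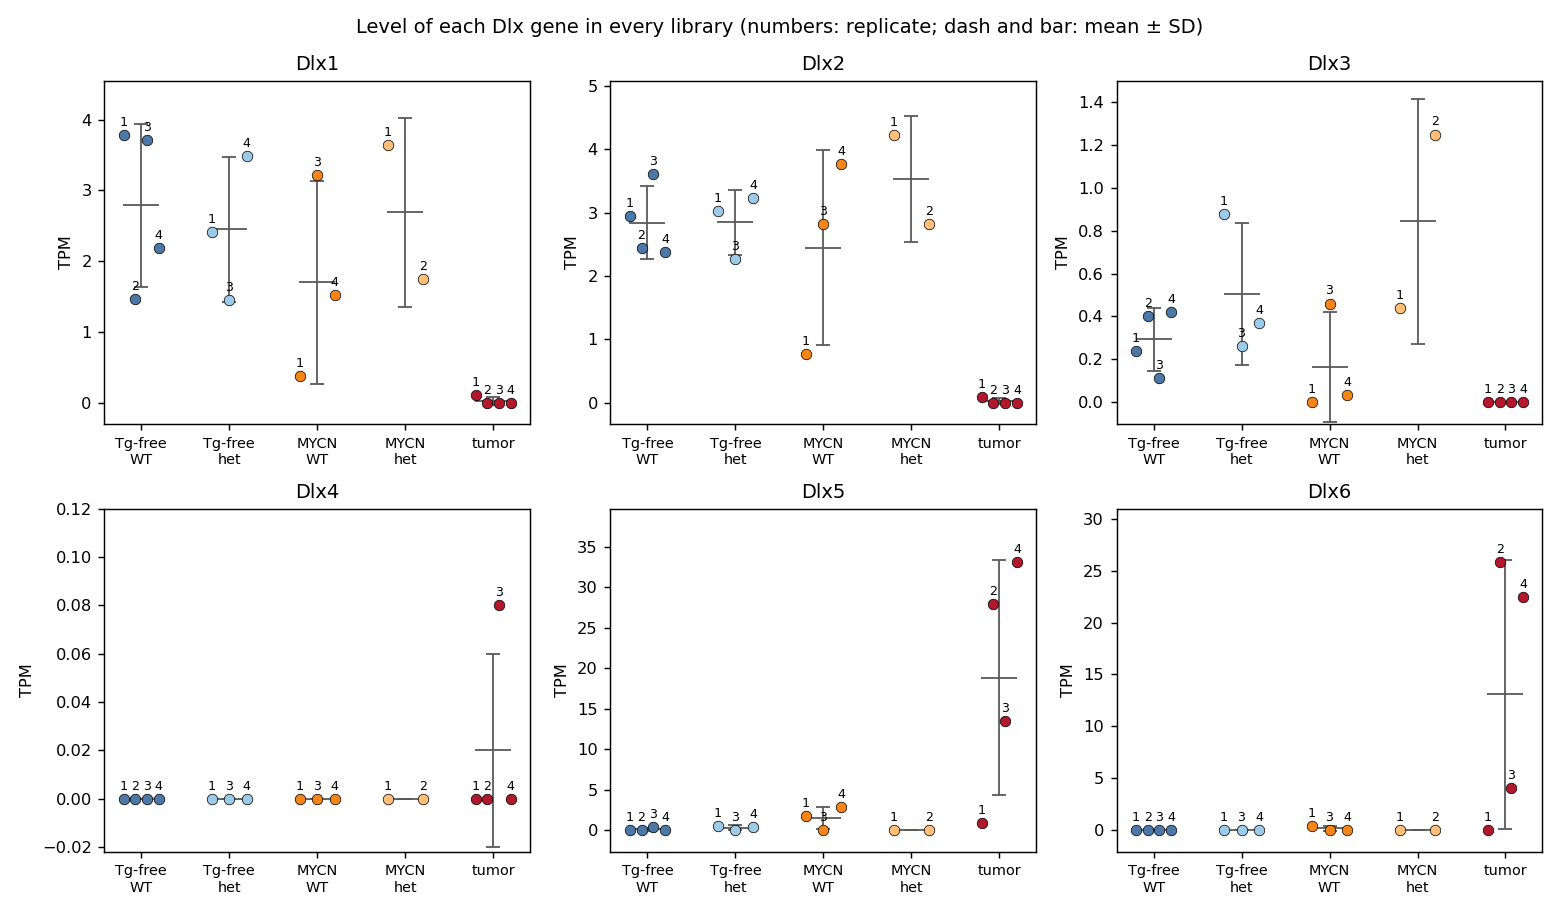
The level of each Dlx gene in TPM (vertical axes, linear and different for each gene) in the 5 groups, with each point a library numbered by its replicate, and the dash and bar the mean ± SD. Dlx1 and Dlx2 sit at 0.37 TPM or more in all 12 ganglia and at 0.11 TPM or less in the tumors, while Dlx5 and Dlx6 are high in tumor replicates 2, 3 and 4 and not in replicate 1.

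Dlx1, a transcription factor of interneuron and retinal neuron development, was measured at 3.79, 1.46, 3.72 and 2.19 TPM in replicates 1 to 4 of the control ganglia. Replicates 1, 3 and 4 of the control het ganglia had 2.41, 1.45 and 3.49 TPM. The MYCN ganglia had 0.37, 3.22 and 1.52 TPM in replicates 1, 3 and 4. These groups overlapped, and replicate 1 of the MYCN ganglia was the lowest of all ganglia. The MYCN het ganglia had 3.64 and 1.75 TPM. Tumor replicate 1 had 0.11 TPM and the other 3 tumors were at 0, so no tumor reached the lowest ganglion. By group mean the order was control (2.79 ± 1.15, SD, n = 4), MYCN het (2.70 ± 1.34, n = 2), control het (2.45 ± 1.02, n = 3), MYCN (1.70 ± 1.43, n = 3) and tumors (0.0275 ± 0.055, n = 4). Each ganglion group lay within 1 SD of its neighbor in that order.

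Dlx2, which works with Dlx1 and is the member most studied in neural crest and forebrain, had 2.95, 2.44, 3.61 and 2.37 TPM in the control ganglia. Control het ganglia had 3.03, 2.27 and 3.23 TPM. The spread in these 7 libraries was narrower than that of Dlx1. MYCN ganglia had 0.76, 2.82 and 3.76 TPM in replicates 1, 3 and 4, and MYCN het ganglia had 4.23 and 2.82 TPM. Replicate 1 was again the lowest ganglion. Tumor replicate 1 had 0.09 TPM, which is 3 counts, and tumor replicates 2, 3 and 4 were at 0. The order of the group means was MYCN het (3.53 ± 0.997, SD, n = 2), control and control het (2.84 ± 0.573, n = 4, and 2.84 ± 0.506, n = 3), MYCN (2.45 ± 1.53, n = 3) and tumors (0.0225 ± 0.045, n = 4), and the ganglion groups overlapped.

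Dlx3, a regulator of epidermal and bone differentiation, was lower per length than Dlx1 and Dlx2 in each ganglion group. It had 0.24, 0.40, 0.11 and 0.42 TPM in the control ganglia and 0.88, 0.26 and 0.37 TPM in control het ganglia. MYCN ganglia had 0, 0.46 and 0.03 TPM, and MYCN het ganglia 0.44 and 1.25 TPM. The ganglion groups overlapped, at 16 counts or fewer per library. All 4 tumors were at 0 counts, as was replicate 1 of the MYCN ganglia. Dlx4 was at 0 in 15 of 16 libraries and at 0.08 TPM, or 2 counts, in tumor replicate 3.

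Dlx5, a regulator of osteoblasts, the jaw and interneurons, was at 0.91, 27.9, 13.5 and 33.1 TPM in tumor replicates 1 to 4, a mean of 18.9 ± 14.6 TPM (SD, n = 4). The MYCN ganglia came next in the order of means, with 1.73, 0.08 and 2.83 TPM in replicates 1, 3 and 4. Tumor replicate 1 thus lay below a pair of these ganglia, and the groups overlapped. The control het ganglia had 0.52, 0 and 0.43 TPM. Control ganglia had 0.42 TPM in replicate 3 and 0 in the others, and both MYCN het ganglia were at 0. These last 3 groups did not differ beyond their spread, and all were at 6 counts or fewer in each library.

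Dlx6, the partner of Dlx5 in jaw and forebrain development, had 0, 25.8, 4.06 and 22.5 TPM in tumor replicates 1 to 4, a mean of 13.1 ± 12.9 TPM (SD, n = 4). Tumor replicate 1 had no Dlx6 count at all, although it had 15 counts of Dlx5. In the MYCN ganglia it was at 0.45, 0 and 0.07 TPM, which is 2, 0 and 1 counts. The other 9 ganglia were at 0 counts. Dlx6 was therefore above 3 counts in 3 of 16 libraries, all tumors.

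**Figure D2:**
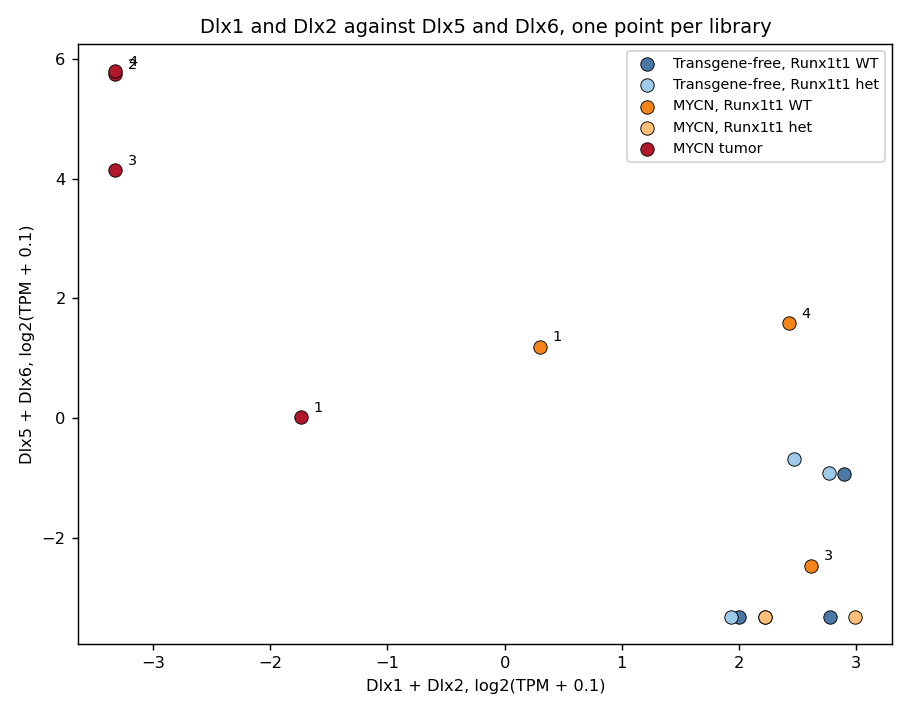
Summed Dlx1 and Dlx2 (horizontal axis) against summed Dlx5 and Dlx6 (vertical axis), both as log2(TPM + 0.1), with 1 point per library and replicate numbers at MYCN ganglia and at tumors. Ganglia sit to the right and low, tumor replicates 2, 3 and 4 to the left and high, and replicates 1 and 4 of the MYCN ganglia carry both pairs.

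Both pairs were above 1 TPM in 2 libraries, replicates 1 and 4 of the MYCN ganglia. In replicate 1, Dlx1 and Dlx2 summed to 1.13 TPM and Dlx5 and Dlx6 to 2.18 TPM, so that Dlx1, Dlx2 and Dlx3 were 34.1% of the family. Replicate 4 had 5.28 TPM of the first pair and 2.90 TPM of the second (64.7%), and replicate 3 had 6.04 and 0.08 TPM (98.8%). Replicate 1 also had the highest proliferation markers among ganglia and the lowest glial markers. Its 7 proliferation markers summed to 1145 TPM, against 118 and 611 TPM in replicates 3 and 4 and 1366 to 1642 TPM in tumors. Its 8 glial markers summed to 487 TPM, against 1846 and 1270 TPM in replicates 3 and 4.

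The tumors were compared with control ganglia to give the difference between normal tissue and tumor. Pooled counts, divided by TMM library sizes, gave folds with 95% counting intervals, and edgeR gave log2 fold changes. Their SE was derived as the absolute log2 fold change divided by the square root of the F statistic of the edgeR test. Dlx1 was 94.8-fold lower in tumors (36.6 to 350, with 4 counts in tumors), and its log2 fold change was -6.25 (SE 1.08). Dlx2 was 113-fold lower (38.3 to 554, with 3 counts in tumors), with a log2 fold change of -6.47 (SE 0.929). Dlx3, at 0 in tumors, was at least 3.01-fold lower, where a group at 0 is set to 3 counts per library. All 3 genes were lower in each of the 4 tumors than in each of these ganglia. The tumor counts of Dlx1 and Dlx2 were all in replicate 1, and without it they were at least 33.4-fold and at least 30.0-fold lower.

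Dlx5 was 202-fold higher in tumors than in control ganglia (92.8 to 552), with a log2 fold change of 7.53 (SE 1.58), and 253-fold higher without tumor replicate 1. The ganglion counts were all in replicate 3, without which Dlx5 was at least 90.6-fold higher, and without ganglion replicate 4 it was 123-fold higher. Dlx6 was at least 52.5-fold higher, and at least 66.2-fold higher without tumor replicate 1. In the edgeR fit over 16665 genes, adjusted by Benjamini-Hochberg at 0.05, Dlx1, Dlx2 and Dlx3 were called lower and Dlx5 and Dlx6 higher. Of all genes tested, 27.0% were called higher and 30.7% lower, so a call in either direction was common. Dlx5 and Dlx6 passed the filter almost wholly through the tumors, and the levels chose the members, so nothing is read from the count of 5 called of 5 tested. With only these groups in the fit, Dlx3 and Dlx6 did not pass the filter and were not tested, and the other 3, Dlx1, Dlx2 and Dlx5, were called. With limma on log2(TPM + 1), Dlx3 was tested and not called. Without the ganglion library rich in lymphocyte markers, all 5 calls held, and the folds were 101 and 115 lower for Dlx1 and Dlx2, 175 higher for Dlx5 and at least 60.7 higher for Dlx6.

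Tumors and MYCN ganglia share the genotype and differ in tissue and, since the age of the tumors is not given, perhaps in age. Dlx1 was 65.0-fold lower in tumors (24.9 to 242), with a log2 fold change of -5.55 (SE 1.08). Of its 158 ganglion counts 90.61 were in replicate 3, and the tumor counts of Dlx1 and Dlx2 were all in tumor replicate 1. Both folds thus depend on single libraries. Dlx2 was 118-fold lower (39.8 to 576), with a log2 fold change of -6.26 (SE 0.94), and Dlx3 at least 1.78-fold lower. Of the 13 Dlx3 counts in these ganglia 12 were in replicate 3, without which no fold can be given, and without replicate 4 it was at least 3.36-fold lower. Both Dlx1 and Dlx2 were called lower, beside 20.5% of all genes, and were called under all 15 alternatives tried (other tools, scales, filters and left-out libraries). The levels chose the members, so nothing is read from the calls of members in this comparison. Dlx5 was 16.4-fold higher (12.8 to 21.4), with a log2 fold change of 4.03 (SE 1.44). Dlx6 was 185-fold higher (63 to 897), a ratio that rests on 3 ganglion counts.

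The calls of Dlx5 and Dlx6 against MYCN ganglia did not hold when libraries were left out. Both were called higher with all libraries, beside 14.0% of all genes. Both calls were lost without tumor replicate 2, without tumor replicate 4, and without replicate 1, 3 or 4 of the MYCN ganglia, and that of Dlx5 also without tumor replicate 3. DESeq2 called 4 members, and Dlx6 was not called. Over all alternatives Dlx5 was called in 5 of 15, Dlx6 in 6 of 15 and Dlx3 in 10 of the 14 that tested it. Dlx3 was lost without replicate 3 of the MYCN ganglia, with the replicate block and with limma on TPM at either pseudocount. The fold of Dlx5 was 16.6, 10.9 and 47.5 without MYCN ganglion replicates 1, 3 and 4, and 20.5 without tumor replicate 1. That of Dlx6 was 474, 121 and 136 without the same ganglia, and 233 without tumor replicate 1.

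Against the MYCN het ganglia, which are 2 libraries, Dlx1 was 88.4-fold lower in tumors (33.2 to 333; log2 fold change -6.13, SE 1.14). Its ganglion counts were 52.7 and 24 in replicates 1 and 2, and its tumor counts were all in tumor replicate 1, as were those of Dlx2. Dlx2 was 135-fold lower (44.6 to 666; log2 fold change -6.70, SE 0.982) and Dlx3 at least 8.42-fold lower (at least 12.8 and 4.39 without MYCN het replicate 1 and 2). Dlx5 was at least 63.8-fold and Dlx6 at least 33.1-fold higher. All 5 were called, beside 23.5% of genes called lower and 22.0% higher. The levels chose the members, and Dlx5 and Dlx6 passed the filter almost wholly through the tumors, so nothing is read from these calls. Calls of Dlx5 and Dlx6 were lost when either of the MYCN het libraries was left out, and that of Dlx6 also without tumor replicate 2, 3 or 4, with DESeq2, with a replicate block, with a term for depth and with only these groups in the fit. Dlx6 was thus called in 5 of 14 alternatives. The 3 tumor comparisons use the same 4 tumors, so their values are not separate evidence.

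Among ganglia, no Dlx gene was called in any of 4 comparisons. For MYCN against control ganglia, where 0.936% of all genes were called, Dlx1 had a log2 fold change of -0.70 (SE 0.888), Dlx2 of -0.21 (SE 0.736) and Dlx3 of -0.78 (SE 1.12). Dlx5 had 12.3 times the pooled level of control ganglia (5.37 to 34.8; log2 fold change 3.50, SE 1.49). The control ganglia held 6 Dlx5 counts, all in replicate 3, so the ratio rests on that library. DESeq2 also called 0 members, and gave no adjusted p for 1 of them. Replicate 3 of the MYCN ganglia, at 0.08 TPM, lay inside the range of control ganglia of 0 to 0.42 TPM, and without replicate 4 the ratio was 4.26.

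Between MYCN het and control het ganglia, edgeR called 0 genes in all (0%; 242 of 16665 at an unadjusted p under 0.05), and DESeq2 called 0 members. Dlx1 differed by 0.09 (SE 1.05) on the log2 scale, Dlx2 by 0.26 (SE 0.874) and Dlx3 by 0.75 (SE 1.25). These 3 differences were smaller than their SE. Dlx5 had 9 counts over the 3 control het ganglia and 0 in both MYCN het ganglia, too few for a fold, and Dlx6 had no count in either group.

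Between MYCN het and MYCN ganglia, where 0.0120% of genes were called, the difference was 0.58 (SE 1.04) for Dlx1, 0.45 (SE 0.871) for Dlx2 and 2.24 (SE 1.28) for Dlx3. Dlx5 was at least 3.88-fold lower in MYCN het ganglia, whose 2 libraries held no Dlx5 count, at least 1.34-fold lower without replicate 4 of the MYCN ganglia and at least 5.84-fold without replicate 3. Neither edgeR nor DESeq2 called a member, although DESeq2 gave no adjusted p for 4 of them. Both MYCN het libraries were under 20000000 counts, and in replicate 3 of the MYCN ganglia Dlx5 was at 1 count, so the groups nearly met.

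Between control het and control ganglia, the differences were -0.20 (SE 0.877) for Dlx1, -0.03 (SE 0.734) for Dlx2, 0.72 (SE 1.08) for Dlx3 and 0.98 (SE 1.66) for Dlx5, with 0% of all genes called by edgeR (687 of 16665 at an unadjusted p under 0.05). The difference between MYCN and transgene-free ganglia was also compared between Runx1t1 labels with an interaction term. It differed by 0.79 (SE 1.36) for Dlx1, 0.47 (SE 1.14) for Dlx2 and 1.52 (SE 1.68) for Dlx3. The fitted value for Dlx5 was -8.25 (SE 3.67), which depends on the prior count because both MYCN het ganglia were at 0, and Dlx6 could not be estimated. With this term edgeR called 0 of 16665 genes, with 937 at an unadjusted p under 0.05.

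Antisense transcripts overlap some of the members. Dlx1as, transcribed across Dlx1 from the opposite strand (chr2:71516454-71537891), was at 0 in all tumors and at 0.05 to 0.58 TPM in 11 of 12 ganglia. It was at least 1.45-fold lower in tumors than in control ganglia and at least 3.84-fold lower than in MYCN ganglia. As it shares reads with Dlx1, these values are a description with no p. Of the joint reads of Dlx1 and Dlx1as, 0 to 25% were assigned to Dlx1as in ganglia. The library kit keeps strand, but whether counting used it is not given in the sources used here, so the split between this gene and Dlx1 is uncertain.

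Dlx6os1, also called Evf2, an RNA transcribed across Dlx6 (chr6:6820189-6871592, minus strand) and known as a regulator of both its neighbors in the forebrain, had 0.07, 1.75, 0.78 and 1.15 TPM in tumor replicates 1 to 4. In ganglia it was at 0.05 TPM, 1 count, in replicate 2 of the control ganglia and at 0 in the other 11. Its log2 fold change was 6.86 (SE 1.47) against control ganglia, and it was at least 19.8-fold higher than in MYCN ganglia. It passed the filter through the tumors and overlaps Dlx6, so these values too carry no p. Dlx6os2 had 0, 0.42, 0.11 and 0.89 TPM in tumors, was at 0 in all ganglia and did not pass the filter. Dlx4os, under the name A730090H04Rik, was at 0 in all 16 libraries.

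Windows of 250 bases before a start were taken from RefSeq (GRCm38.p6) for genes whose level differed, to show what the letters next to the start hold; 2 of the 6 members matched, Dlx1 and Dlx2. The Dlx2 window is chr2:71546755-71547004 on the minus strand, with capitals for CACGTG, the E-box that MYC proteins prefer. That of Dlx6os1 is chr6:6861684-6861933 on the minus strand, before one of its listed starts and inside the span given above, with capitals for TAATTA, the core that homeodomains bind. Neither overlaps an annotated exon.
Dlx2: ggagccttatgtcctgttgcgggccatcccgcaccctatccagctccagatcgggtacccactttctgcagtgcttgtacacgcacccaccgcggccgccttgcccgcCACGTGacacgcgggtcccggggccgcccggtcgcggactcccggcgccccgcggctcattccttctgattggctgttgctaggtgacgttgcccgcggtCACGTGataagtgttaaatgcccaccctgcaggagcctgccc
Dlx6os1: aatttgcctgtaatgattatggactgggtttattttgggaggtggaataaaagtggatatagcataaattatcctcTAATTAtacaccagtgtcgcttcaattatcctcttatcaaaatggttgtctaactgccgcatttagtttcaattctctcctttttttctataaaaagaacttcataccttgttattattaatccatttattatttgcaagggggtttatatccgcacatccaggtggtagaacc

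Both motifs, which read the same on either strand, were counted in these windows and in those of all 32851 promoters in the table. Dlx2 held CACGTG at 142 and 42 bases before its start, a motif found before the start in 6.02% of all promoters, and no TAATTA. The Dlx1 window overlaps an annotated exon inside the gene as GENCODE places it, so it was not printed, and it held neither motif. The window of Dlx6os2 also overlaps an annotated exon and held neither motif. Dlx6os1 held TAATTA once, at 174 bases, as 4.84% of promoters did. The window before its other listed start overlaps an annotated exon and was not printed, and it held TAATTA at 130 and 74 bases. The GC content was 66.4% for Dlx2 and 34% for Dlx6os1, against a median of 52.4%. A match is a description of letters, and binding was not measured.

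Genes that flank the pairs were read beside them, since Dlx genes sit in domains with genes of other functions. Of 11 flanking genes 10 were tested. In tumors against control ganglia 3 were called higher and 3 lower, beside 27.0% and 30.7% of all genes. Their median log2 fold change was -0.09, beside -0.11 over all genes. Next to Dlx2, the laminin receptor subunit gene Itga6 fell by 3.64 on the log2 scale (SE 0.408, edgeR adjusted p 1.12e-05), from a mean of 97.1 to 5.81 TPM. On the other side of Dlx1, Metap1d, a mitochondrial methionine aminopeptidase, had a log2 fold change of -0.08 (edgeR adjusted p 0.787), and Hat1, a histone acetyltransferase, rose by 1.46 (SE 0.35, edgeR adjusted p 0.00284). Lower Dlx1 and Dlx2 thus lay between a gene that also fell and a gene that did not pass the test.

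Around Dlx5 and Dlx6 the changes were small. Shfm1, a proteasome subunit gene, rose by 0.99 (SE 0.171, edgeR adjusted p 2.53e-04), from 691 to 983 TPM. Asns, which makes asparagine, and Sdhaf3, an assembly factor of succinate dehydrogenase, had log2 fold changes of -0.11 (edgeR adjusted p 0.673) and 0.16 (edgeR adjusted p 0.767). Tac1, a neuropeptide gene, had at most 1 count in any library and was not tested. None of these approached the difference of Dlx5, 7.53.

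At the Dlx3 and Dlx4 pair, Itga3, another laminin receptor subunit gene, fell by 3.19 (SE 0.559, edgeR adjusted p 2.94e-04) and Pdk2, a kinase that restrains pyruvate dehydrogenase, fell by 2.97 (SE 0.452, edgeR adjusted p 1.00e-04). Kat7, a histone acetyltransferase, had a log2 fold change of 0.36 (edgeR adjusted p 0.0186), although its mean TPM was 27.8 in tumors and 29.1 in ganglia. The median of all genes moved by -0.11 on the scale of the fit and by -0.36 as log2(TPM + 1), so that changes of this size depend on the scale. Tac4, a tachykinin gene, had a log2 fold change of -0.27 (edgeR adjusted p 0.852).

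**Figure D3:**
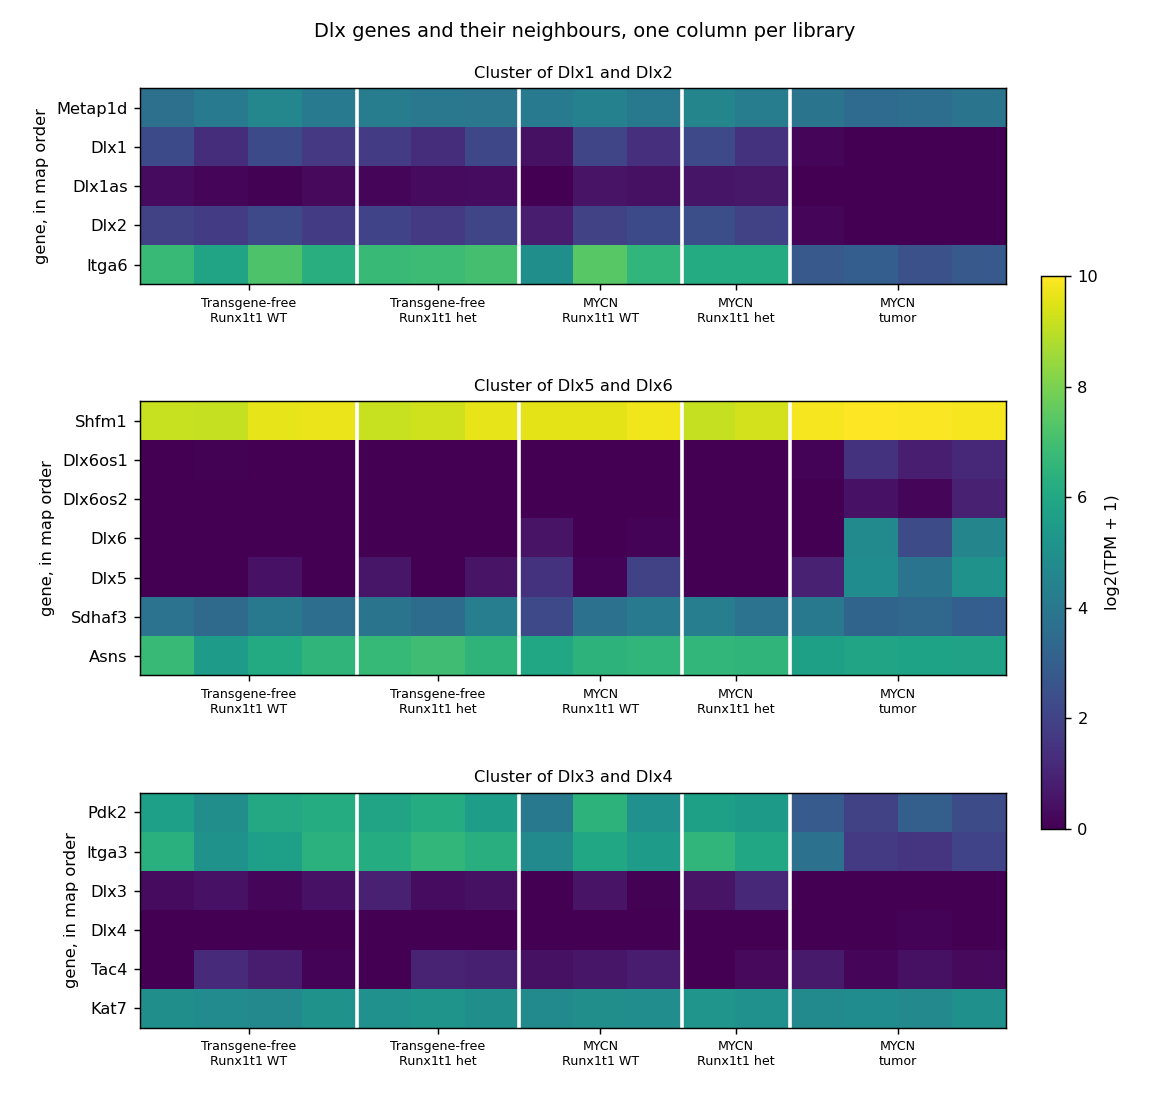
Levels of the Dlx genes and their neighbors as log2(TPM + 1) (color scale), with 1 column per library in the 5 groups (separated by white lines). Protein-coding genes run in map order down each panel, with the overlapping antisense genes placed beside them. Hat1 and Tac1 are not shown. Dlx1 and Dlx2 darken in the tumor columns together with Itga6 and not with Metap1d, while Dlx5 and Dlx6 brighten in 3 tumor columns between Shfm1 on one side and Sdhaf3 and Asns on the other, which are present in all groups.

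Genes of the forebrain interneuron program, which Dlx1, Dlx2, Dlx5 and Dlx6 are known to drive, went both ways. Of 20 listed genes 11 were tested. In tumors against control ganglia 4 were called higher and 5 lower, beside 27.0% and 30.7% of all genes. The median log2 fold change was -0.62, beside -0.11 over all genes. Gad2, which makes GABA, rose from 0.525 ± 0.107 to 22.7 ± 11.5 TPM (SD, n = 4 each), a log2 fold change of 5.84 (SE 0.948, edgeR adjusted p 1.64e-04). It had 18.3, 37.4, 24.8 and 10.2 TPM in tumor replicates 1 to 4, so replicate 1, with little Dlx5 and no Dlx6, was not low. Erbb4, a neuregulin receptor gene, was listed at 0 in all 4 control ganglia and at 0.80 to 4.38 TPM in tumors (edgeR adjusted p 4.23e-04).

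Both neuropeptide genes of the list fell. Sst fell by 9.33 on the log2 scale (SE 0.966, edgeR adjusted p 6.61e-06), from 85.6 to 0.07 TPM, and Npy fell by 5.78 (SE 0.573, edgeR adjusted p 5.12e-06), from 3903 to 50.8 TPM; sympathetic neurons make Npy as well. Gad1, Slc32a1, Gsx1, Gsx2, Nkx2-1, Sp8 and Sp9, among them the vesicular GABA transporter gene and transcription factor genes of these cells, were at 1.76 TPM or less in any library and did not pass the filter. Against MYCN ganglia, 0 were called higher and 4 lower of 11, beside 14.0% and 20.5% of all genes. Gad2 was also the only listed interneuron gene called between ganglia, higher in MYCN than in control ganglia by 4.88 (SE 0.933, edgeR adjusted p 0.0379), with 36.6, 1.32 and 4.60 TPM in MYCN replicates 1, 3 and 4.

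BMP and endothelin signals act upstream of Dlx genes in the neural crest and jaw. All 14 listed ligands, receptors and Smad genes were tested, and 4 were called higher and 10 lower in tumors than in control ganglia, beside 27.0% and 30.7% of all genes (median log2 fold change -1.92, beside -0.11 over all genes). The ligand gene Bmp4 fell by 4.61 (SE 0.728, edgeR adjusted p 1.33e-04), from 38.7 to 1.12 TPM, and Bmp5 fell by 3.46 (SE 1.01, edgeR adjusted p 0.00968). Ednra, the endothelin receptor gene that acts before Dlx5 and Dlx6 in the jaw, fell by 3.16 (SE 0.508, edgeR adjusted p 1.56e-04), from 14.4 to 1.18 TPM. Bmp7, another ligand gene, rose by 4.32 (SE 1.3, edgeR adjusted p 0.0116), with 0.06, 13.2, 0.85 and 32.1 TPM in tumor replicates 1 to 4 and 0.29 to 1.39 TPM in those ganglia. Bmp7 was thus high in the same pair of tumors in which Dlx5 and Dlx6 were highest.

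Of 15 listed genes that act with or after Dlx5 and Dlx6 in the face and skeleton, 8 were tested. In tumors against control ganglia 1 was called higher and 3 lower, beside 27.0% and 30.7% of all genes. The median log2 fold change was -1.14, beside -0.11 over all genes. Hand1, a transcription factor gene of the jaw and of sympathetic neurons, fell by 5.29 (SE 0.908, edgeR adjusted p 2.50e-04), from 380 to 7.23 TPM. Prrx1, of limb and face mesenchyme, fell by 2.90 (SE 0.716, edgeR adjusted p 0.00348), and Alpl, the bone phosphatase gene, fell by 2.35 (SE 0.397, edgeR adjusted p 2.21e-04). Spp1, which encodes osteopontin and is made by macrophages as well, rose by 2.07 (SE 0.637, edgeR adjusted p 0.013). Of the bone genes that did not pass the filter, Sp7 and Ibsp were at 0 in all 4 tumors, and Bglap, which encodes osteocalcin, had a mean of 0.165 ± 0.201 TPM in tumors and 0.0775 ± 0.155 TPM in control ganglia (SD, n = 4 each). Runx2, the bone master regulator gene, had a log2 fold change of -2.14 (SE 0.919, edgeR adjusted p 0.0598).

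Of 6 genes for proteins known to bind Dlx proteins, 5 were tested. In tumors against control ganglia 3 were called higher and 0 lower, beside 27.0% and 30.7% of all genes. The median log2 fold change was 0.78, beside -0.11 over all genes. Magel2, a MAGE family gene, rose by 6.30 (SE 0.984, edgeR adjusted p 1.23e-04), with 8.32, 57.1, 37.2 and 33.9 TPM in tumor replicates 1 to 4. Its lowest tumor was replicate 1, as with Dlx5 and Dlx6. Grip1, a scaffold gene, rose by 2.72 (SE 0.489, edgeR adjusted p 3.50e-04) and Ndn, which encodes necdin, rose by 0.78 (SE 0.237, edgeR adjusted p 0.0123). Maged1 had a log2 fold change of -0.02 (edgeR adjusted p 0.932), and Msx1 of -1.51 (edgeR adjusted p 0.241), while Msx2 was not tested. Against MYCN ganglia, only Magel2 was called, higher by 2.46 (SE 0.905, edgeR adjusted p 0.0487), beside 14.0% of all genes called higher.

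Markers of other cells moved with the members, and their part in the result was not tested. Of all genes, 27.0% were called higher and 30.7% lower in tumors than in control ganglia, and 20.5% lower than in MYCN ganglia. All 8 of 8 glial markers were called lower in tumors than in control ganglia (median log2 fold change -5.49) and than in MYCN ganglia (-5.12). Their summed level was 13.8 to 21.4 TPM in tumors and 487 to 2004 TPM in ganglia. Among ganglia, glial markers were lowest in replicate 1 of the MYCN ganglia, as were Dlx1 and Dlx2. Replicate 2 of the control ganglia, next lowest at 557 TPM, had 1.46 TPM of Dlx1, the lowest of its group. It had 2.44 TPM of Dlx2, where the lowest of its group was 2.37 TPM. Replicate 3 of the control het ganglia had less of both, 1.45 TPM of Dlx1 and 2.27 TPM of Dlx2, with 1279 TPM of glial markers. Fibroblast markers summed to 172 to 509 TPM in tumors and 890 to 7907 TPM in ganglia, with 6 of 8 called lower. Sympathetic neuron markers were 2 called higher and 9 lower of 12. Endothelial markers were lower in 3 of 5 (28.3 to 75.5 TPM in tumors, 27.5 to 436 TPM in ganglia), and markers of adrenal cortex and chromaffin cells in 3 of 5 (3.02 to 7.99 TPM and 4.79 to 33.9 TPM). Of 5 myeloid markers none was called by edgeR, with sums of 233 to 700 TPM in tumors, 1929 TPM in replicate 2 of the control ganglia and 32.8 to 255 TPM in the other 11 ganglia. Lymphocyte markers rested on that same ganglion library, with 4 of 4 tested called lower.

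Proliferation markers were called higher in 7 of 7 against control ganglia (median log2 fold change 4.14), beside 27.0% of all genes. Against MYCN ganglia 1 of 7 was called higher, beside 14.0% of all genes. Tumor replicate 1, low in Dlx5, had the lowest sum of these markers among tumors, at 1366 TPM. Replicates 2 to 4 had 1642, 1393 and 1475 TPM. Epidermal and bone markers, read because Dlx3 and Dlx5 are known from those tissues, summed to 10.8, 6.86, 1.51 and 11.4 TPM in tumor replicates 1 to 4 and to 0.58 to 3.07 TPM in ganglia, with 2 called higher and 1 lower of 4 tested. Krt14, a keratin gene, accounted for most of this in replicates 1 and 4, at 10.6 and 7.81 TPM, and was at 0.07 and 1.34 TPM in replicates 2 and 3. Replicate 1, highest in Krt14, had no Dlx6, and Dlx3 was at 0 in all 4 tumors.

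The genes whose pattern was most like each member over the 16 libraries were ranked by Pearson r of log2(TPM + 1) among the 14747 genes with a mean of at least 1 TPM. These correlations are a description, since tumors and ganglia differ in very many genes and the points share their groups. For Dlx2 the 5 highest were Nebl (0.985), Klf5 (0.983), Luzp2 (0.975), Vcl (0.975) and Apcdd1 (0.973). Nebl, which encodes an actin-binding protein, had 1.80, 7.74 and 7.72 TPM in MYCN ganglia, 5.42 to 9.08 TPM in the other ganglia and 0.16 to 0.61 TPM in tumors. It followed Dlx2 in being lowest among ganglia in MYCN replicate 1. For Dlx1 they were Atp6v1f (0.973), 2900055J20Rik (0.972), Cyb5d2 (0.965), Gm13238 (0.963) and Bcat2 (0.962).

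Such likeness was common for these members: 2256 genes reached an r of 0.9 with Dlx2 and 1507 with Dlx1. Dlx1 itself ranked 728th for Dlx2, with an r of 0.942, and Dlx2 ranked 104th for Dlx1. Within the 12 ganglia alone their r was 0.793. For Dlx3 no gene reached 0.9, and the 5 highest were Klhl30 (0.864), Mrps10 (0.862), Calm4 (0.861), Mrpl55 (0.854) and Gm10509 (0.837).

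For Dlx5 the most alike were Cryba2 (0.978), Peg10 (0.976), Eif2s1 (0.969), Fam136a (0.959) and Dscaml1 (0.958), and for Dlx6 Cryba2 (0.980), Dscaml1 (0.951), Rd3 (0.947), Dlx5 (0.946) and St18 (0.944). Peg10, an imprinted gene derived from a retrotransposon (chr6:4747306-4760517), lies 2117287 bases from Dlx5. It had 68.5, 2732, 2807 and 3137 TPM in tumor replicates 1 to 4, 47.2, 12.3 and 228 TPM in MYCN ganglia, 14.6 and 17.8 TPM in MYCN het ganglia and 6.57 to 16.6 TPM in transgene-free ganglia. Like Dlx5, it was lowest among tumors in replicate 1 and highest among MYCN ganglia in replicate 4. St18, a zinc finger transcription factor gene, had 0.02, 49.8, 41.0 and 26.3 TPM in tumors, and Rd3, a retinal gene, 0.06, 9.76, 12.5 and 16.4 TPM. Cryba2, a crystallin gene, had 0, 8.65, 3.02 and 7.31 TPM.

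Tumor replicate 1 was the lowest tumor in Peg10, St18, Rd3 and Cryba2, as in Dlx5 and Dlx6. Only 167 genes reached an r of 0.9 with Dlx5 and 26 with Dlx6, fewer than with Dlx1 or Dlx2. Dlx6 and its antisense Dlx6os1 had an r of 0.982, and Dlx5 and Dlx6 one of 0.946, which was 0.634 in the 12 ganglia, where Dlx6 was above 0 in 2 libraries. Between the pairs r was negative, at -0.788 for Dlx1 with Dlx5 and -0.797 for Dlx2 with Dlx5. These were -0.476 and -0.209 in ganglia alone. With Dlx6, r was -0.716 for Dlx1 and -0.769 for Dlx2. The same were -0.745 and -0.808 in ganglia alone, where they rest on the 2 libraries with a Dlx6 count. The 5 genes named for a member depended on the pseudocount. With log2(TPM + 0.1), the first 5 kept 1 each for Dlx1 and Dlx2, 0 for Dlx3, 2 for Dlx5 and 3 for Dlx6. Of the 5 genes most like a member, 12 ganglia alone kept 1 for Dlx1, 1 for Dlx2, 2 for Dlx3 and 0 for Dlx5 and Dlx6 in their own first 5. The r of the listed genes in these ganglia alone was 0.874 to 0.936 for Dlx1, 0.813 to 0.918 for Dlx2, 0.766 to 0.832 for Dlx3, 0.700 to 0.893 for Dlx5 and 0.634 to 0.812 for Dlx6.

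**Figure D4:**
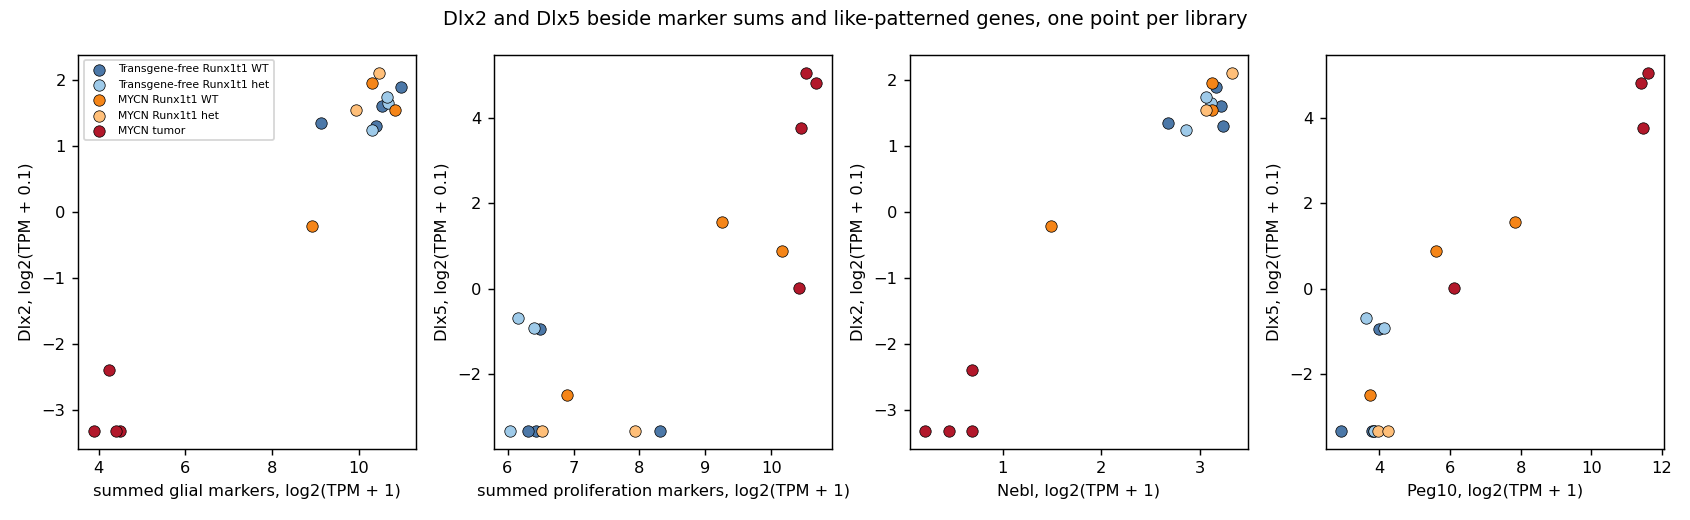
Dlx2 and Dlx5 (vertical axes, log2(TPM + 0.1)) against summed glial markers, summed proliferation markers, Nebl and Peg10 (horizontal axes, log2(TPM + 1)), with 1 point per library colored by group. In tumors Dlx2, glial markers and Nebl are all low. The tumor with a low Dlx5 is replicate 1, which is also low in Peg10. Its proliferation markers are the lowest among tumors, at 1366 TPM against 1393 to 1642 TPM.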

How the data were processed

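RNA of ganglia and tumors was prepared with the SMARTer Stranded Total RNA-seq v2 kit and read as 100-base pairs (NovaSeq); the labels name polyA RNA. The submitters' processing notes list STAR, SAMtools, RSEM and mm10. The authors deposited RSEM expected counts, which need not be whole, and TPM per gene, which the authors scaled by transcript length and library.

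Expected counts were rounded. edgeR 4.0.16 (R 4.3.3; filterByExpr with a minimum count of 10, TMM, quasi-likelihood, all 5 groups in 1 fit, no covariate) tested 16665 of 24411 genes in 7 comparisons, with Benjamini-Hochberg adjustment at 0.05. The method was tested on simulated data. TPM served for levels and for comparing genes. Folds used TMM-scaled pooled counts with exact 95% binomial intervals, which cover counting error only, and a group at 0 was set to 3 counts per library. Total counts were 10692299 to 38618757 per library. Replicates of a group differed by more than sampling noise, so none was a copy.

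Named genes were all 6 members, their antisense and flanking genes, Runx1t1, up to 4 called genes per list by size of change with a mean of at least 1 TPM in either group, the known binding partners, markers near 0, and the 5 genes most like each member. The members and the lists (antisense, flanking, interneuron, BMP and endothelin, craniofacial and skeletal, binding partner and cell type marker genes) were chosen with earlier results of these data known, and Dlx6os2 was added after it was seen in the files. Alternatives were upper-quartile scaling, other filters, DESeq2 1.42.0, limma 3.58.1 on log2(TPM + 1) or log2(TPM + 0.1), the replicate number as a block, only the groups compared, each library left out, and, added after seeing the data, a term for depth under or over 20000000 counts. Coordinates and homeobox sequences are from GENCODE vM21 (GRCm38), promoter windows from RefSeq (GRCm38.p6). Some genes of the interneuron list are not reported here by name.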

Additional observations from a re-analysis of the deposited data

Results flagged for a closer look

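Values in which 1 library of a group of 4 stood far from the other 3 were looked for in each group of 4 libraries, and chance alone does this in about 1 group in 20. In tumors, Dlx1 was at 0.11 TPM and Dlx2 at 0.09 TPM in replicate 1, and both were at 0 in the other 3. Dlx4 was at 0.08 TPM in tumor replicate 3 and at 0 in the other 3. In control ganglia, Dlx5 was at 0.42 TPM in replicate 3 and at 0 in the other 3, and Dlx6os1 was at 0.05 TPM in replicate 2 and at 0 in the other 3. Each of these values rests on 1 to 6 counts beside 3 libraries at 0, where any count stands apart, so the rate of 1 in 20 does not apply to them. What sets tumor replicate 1 apart, which holds all Dlx1 and Dlx2 counts of the tumors and little Dlx5, was not tested.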

How the results depend on the processing

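In tumors against control ganglia, 5 Dlx genes were called. The count was 3 where the fit held just the groups compared, in which Dlx3 and Dlx6 were not tested, and 4 with log2(TPM + 1), where Dlx3 was not called. Against MYCN ganglia, 5 were called; the count was 2 where the fit held just the groups compared, 2 with the replicate block and 3 with a term for library depth, a setting chosen after seeing the data. Dlx5 and Dlx6 were lost in each of these 3, and Dlx3 was not tested in the first. DESeq2 called 4 against MYCN ganglia and 4 against MYCN het ganglia, without Dlx6 in both. Leaving out each library in turn gave 5 to 5 calls against control ganglia, 2 to 5 against MYCN ganglia and 3 to 5 against MYCN het ganglia; the cause was not tested. Dlx1 and Dlx2 were called in all 3 tumor comparisons under each of 16, 15 and 14 alternatives, and 0 members were called between ganglia under any. The levels chose the members and the tumor comparisons share their tumors, so these calls describe the settings and are not evidence for a difference. The replicate block changed calls in no comparison with control ganglia and lost Dlx6 against MYCN het ganglia (4 called), as did a term for depth and a fit of just those groups. The correlations did not show a pairing by replicate number. Deviations of 25 same-number pairs had a median correlation of -0.0154 (7 over 0.1), and those of 76 different-number pairs -0.0127 (15 over 0.1). Of 16 libraries, 5 were closest to one with their own number. The number did go with depth in ganglia: libraries numbered 1 or 2 were all under 20000000 counts and those numbered 3 or 4 all over. Whether it also marks a batch was not tested. A minimum of 10 counts in each library left no Dlx gene to test. At 20000000 counts or fewer, as in both MYCN het ganglia, 3 counts of Dlx5 or Dlx6 could not be told from none.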
